A study of Homo sapiens with 11 samples.

Results

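This account covers the repeat copies of 3 small structured RNAs in RNA bound by J2, an antibody that recognises double-stranded RNA: 7SL, 7SK and the Y RNAs. Members were all rows of the repeat tables whose name begins with srpRNA (7SL), RNA (7SK) or scRNA, and they number 4121 of 5622516 repeat elements. The 4121 copies comprise 1428 of 7SL, 762 of 7SK and 1931 scRNA rows. The scRNA rows hold 1224 Y RNA copies (461 of HY1, 576 of HY3, 164 of HY4 and 23 of HY5) and also 707 copies of BC200, a different small RNA, which is described apart. Of all members, 2625 had no read in any library and 722 had reads in all 3 libraries.

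The cells were HCT116, an established human colorectal cancer line. Cells were given either a control siRNA that targets luciferase (siLuc) or 1 that targets Staufen1 (siStau1), a protein that binds double-stranded RNA. The drug was decitabine (DAC), which blocks DNA methylation and was used at 500 nM for 5 days, and the control was its solvent, DMSO. The J2 data are 3 libraries, 1 per condition: siLuc with DMSO (the DMSO library), siLuc with DAC (the DAC library) and siStau1 with DAC (the siStau1 DAC library). J2 values below are given in that order, and the J2 data hold no library of siStau1 with DMSO. Total RNA has 2 libraries for each of the 4 pairings of siRNA and drug, and its values are given with siLuc first and DMSO before DAC. Labels of the enriched libraries name J2, but a protocol that all samples share speaks of Staufen1 as the antibody's target, so the antibody is uncertain. With 1 J2 library per group there is no replicate check, no test between conditions was made, and each J2 ratio compares 2 libraries. Each library stands in 2 of the 3 J2 comparisons, so these comparisons are not independent of each other.

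7SL is the RNA scaffold of the signal recognition particle, which brings ribosomes that make secreted or membrane proteins to the endoplasmic reticulum. 7SK holds the elongation kinase P-TEFb in an inactive complex together with HEXIM, LARP7 and MEPCE. Y RNAs are short hairpin RNAs bound by RO60 and by the La protein, and BC200 is a primate RNA related to Alu elements that is best known from neurons. All are made by RNA polymerase III, fold back on themselves, and have left many copies, mostly pseudogenes, across the human genome.

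The repeat tables name copies without positions or letters, so no copy was assigned to a gene here. Reads on repeats numbered 71473124, 68944777 and 83037330, and every J2 level here is a share of these totals. The authors' own scaling factors, 1 for the DMSO library, 1.92 for the DAC library and 1.27 for the siStau1 DAC library, move the median log2 ratio over all elements from 0.01 to 0.90 (DAC over DMSO in siLuc), from 0.03 to −0.30 (siStau1 over siLuc, both with DAC) and from 0.04 to 0.60 (siStau1 DAC over siLuc DMSO). Ratios within a library, and a family set against all elements, do not depend on that choice. In total RNA the targeted gene STAU1 had 35.5 and 33.7 FPKM (fragments per kilobase of transcript, scaled to library size) with siLuc and 29.98 and 27.1 with siStau1. These are 0.844 and 0.804 times the siLuc level with DMSO and with DAC, and the authors' deposited table called neither difference (q = 0.767 and 0.685), so statements on siStau1 rest on the labels. Epithelial markers EPCAM, CDH1, KRT8, KRT18 and KRT19 had at least 14.3 FPKM in all groups. The leukocyte, endothelial and fibroblast markers PTPRC, PECAM1 and COL1A2 were each under 1 FPKM.

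Few copies carried nearly all 7SL and 7SK reads, and they did so to the same degree in the 3 libraries. A copy is called dominant here where it held on average at least 5% of its family's reads, a split that uses the reads themselves and is therefore a description. In 7SL, 3 copies passed: srpRNA_7SLRNA_2870 with 3889072, 3941953 and 3738825 reads, srpRNA_7SLRNA_2827 with 2952931, 3161055 and 2950818 reads, and srpRNA_7SLRNA_2707 with 613506, 498225 and 529867 reads. Together they held 99.3% of 7SL reads in each library. The smallest of them held 7.32% of the family on average, and the highest copy under the limit, srpRNA_7SLRNA_2269_4, held 0.354%, with 30565, 23944 and 24942 reads. In 7SK the copy RNA_7SK_2993 alone had 4511504, 4505363 and 4568774 reads, or 96.1%, 96.4% and 96.2% of the family. The highest 7SK copy under the limit, RNA_7SK_1986, held 1.12% on average.

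The Y RNA and BC200 copies were spread more evenly and were far lower. In Y RNA only scRNA_HY3_555 passed, at 5.02% of the family on average with 101, 66 and 175 reads, and scRNA_HY4_645 lay just under the limit at 4.23% with 53, 193 and 82 reads. In BC200 scRNA_BC200_632 passed with 692, 398 and 871 reads, 20.1% of the family on average, and scRNA_BC200_359 lay just under at 4.79% with 117, 169 and 185 reads. The plot of ranked copies shows the steep drop in 7SL and 7SK and the gradual one in the other families.

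**Figure D1:**
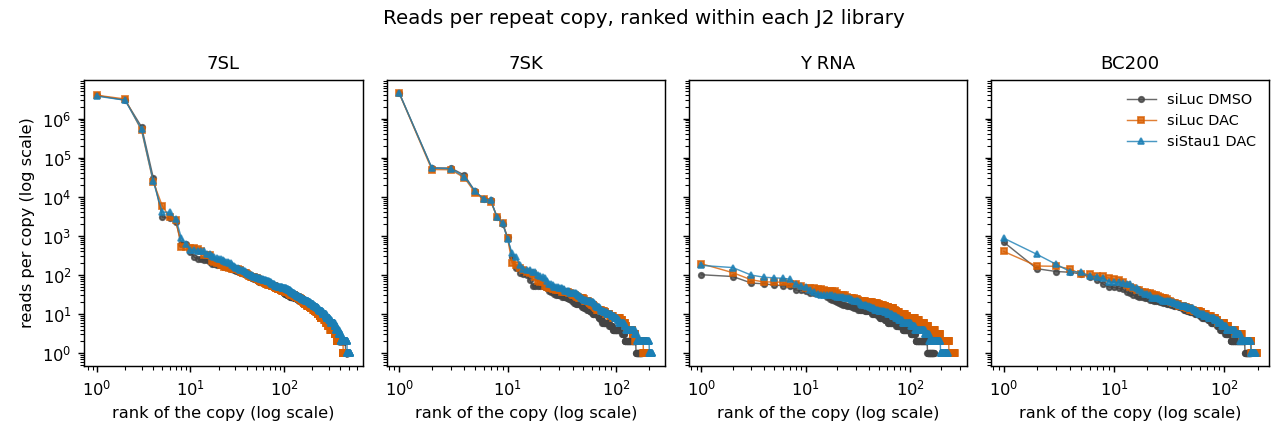
Reads of each copy with at least 1 read (vertical axis, log scale) against its rank within the family (horizontal axis, log scale), with 1 line per J2 library. The 3 highest 7SL copies and the highest 7SK copy stand far above the rest in all 3 libraries, while the highest Y RNA copy had 101, 193 and 175 reads.

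Summed over all copies, 7SL was lowest in the siStau1 DAC library. It had 7507904, 7651224 and 7272727 reads. These are 10.50%, 11.1% and 8.76% of reads on repeats. The log2 ratio was 0.08 for DAC over DMSO in siLuc, −0.34 for siStau1 over siLuc with DAC, and −0.26 for siStau1 DAC over siLuc DMSO. The last of these turns to 0.30 with the authors' factors.

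7SK followed the same order with smaller distances. It had 4695027, 4672636 and 4747745 reads, or 6.57%, 6.78% and 5.72% of reads on repeats. The log2 ratios were 0.05, −0.25 and −0.20 in the same order, and the last turns to 0.37 with the authors' factors. The Wilson 95% interval of the 7SL share ran from 11.09% to 11.10% in the DAC library and from 8.752% to 8.764% in the siStau1 DAC library, so counting error is small beside these ratios, but no replicate library shows how far 2 libraries of 1 condition differ.

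Y RNA copies were lowest in the DMSO library and highest in the DAC library. They had 1668, 3065 and 2551 reads. Their shares of reads on repeats were 0.00233% (95% interval 0.00222% to 0.00245%), 0.00445% (0.00429% to 0.00461%) and 0.00307% (0.00296% to 0.00319%). These intervals do not overlap, but they cover counting error only and are too narrow if mates of 1 pair are each counted. They do not show how far 2 libraries of 1 condition differ. The log2 ratio was 0.93 for DAC over DMSO in siLuc (0.84 to 1.02), −0.53 for siStau1 over siLuc with DAC (−0.61 to −0.46) and 0.40 for siStau1 DAC over siLuc DMSO (0.31 to 0.49), with the same signs under the authors' factors. Copies with at least 1 read numbered 169, 267 and 230 of 1224. The DAC library also stood apart over all repeat elements. Of elements with at least 1000 reads, 4.97% were at least 2-fold higher and 8.15% at least 2-fold lower in it than in the DMSO library. For the siStau1 DAC library against the DMSO library these shares were 2.88% and 0.047%. The part of this in the Y RNA values was not tested.

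The order was shared by the Y RNA classes with more than a few reads. In reads per 1000000 reads on repeats, HY1 copies had 9.43, 17.9 and 13.7. HY3 copies had 8.77, 16.9 and 11.8. HY4 copies had 5.01, 9.46 and 5.08, so in this class the siStau1 DAC library lay next to the DMSO library. HY5 copies had 9, 16 and 10 reads in all, too few to set the libraries apart.

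BC200 copies differed less. They had 2805, 3208 and 3750 reads, or 39.2, 46.5 and 45.2 per 1000000 reads on repeats. The log2 ratios were 0.25, −0.04 and 0.20, and the interval of the middle value, −0.11 to 0.03, includes 0.

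Other RNA polymerase III or small nuclear RNA repeats in the same libraries did not share 1 pattern with these families. The log2 ratio of DAC over DMSO in siLuc was 0.52 for the summed tRNA copies and −0.22 for the summed snRNA copies, against 0.93 for Y RNA, 0.08 for 7SL and 0.05 for 7SK. For siStau1 over siLuc with DAC it was −0.32 for tRNA copies and −0.02 for snRNA copies. No test of these differences was possible with 1 library per group.

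**Figure D2:**
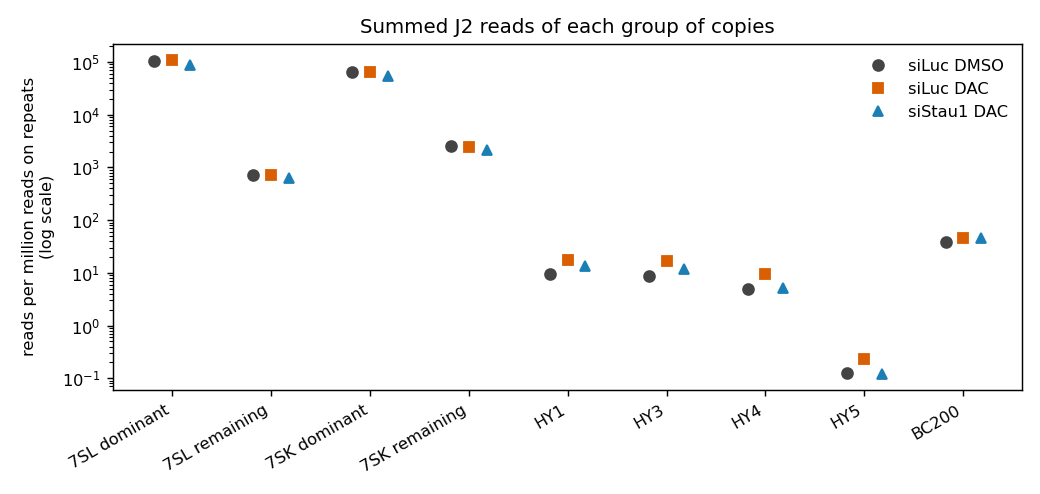
Summed J2 reads per 1000000 reads on repeats (vertical axis, log scale) for the dominant and remaining copies of 7SL and 7SK, for each Y RNA class and for BC200, with 1 symbol per library. 7SL and 7SK symbols lie close together, and HY1, HY3 and HY4 are lowest in siLuc DMSO and highest in siLuc DAC.

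The dominant copies of a family did not all move alike. For DAC over DMSO in siLuc the log2 ratio was 0.15 for srpRNA_7SLRNA_2827, 0.07 for srpRNA_7SLRNA_2870 and −0.25 for srpRNA_7SLRNA_2707. For siStau1 over siLuc with DAC it was −0.37, −0.34 and −0.18. Within 7SL the share of srpRNA_7SLRNA_2707 was therefore highest in the DMSO library, at 8.17%, against 6.51% in the DAC library and 7.29% in the siStau1 DAC library. How the authors' counting divided reads among near-identical copies is not stated, so the split between these 3 copies is uncertain and their sum is firmer.

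Set against the sum of the remaining copies, the dominant copies differed little. The log2 ratio of the dominant sum minus that of the remaining sum, which no scaling changes, was 0.10, −0.16 and −0.07 for 7SL in the 3 comparisons and 0.13, −0.08 and 0.05 for 7SK. For Y RNA the single dominant copy went against the sum of the other copies, but it was not alone. scRNA_HY3_555 had 101, 66 and 175 reads, lowest in siLuc DAC, where the remaining Y RNA copies were highest with 1567, 2999 and 2376 reads. The differences were −1.55, 1.74 and 0.19. In the DAC library scRNA_HY3_555 held 2.15% of the family, below scRNA_HY4_645 at 6.30%. Of the 16 remaining Y RNA copies with 100 reads or more, 9 were higher in the DAC library than in the DMSO library. Others, such as scRNA_HY4_738 with 91, 57 and 84 reads, were lower as well. In BC200 scRNA_BC200_632 was likewise lowest in siLuc DAC while the remaining copies had 2113, 2810 and 2879 reads, and the differences were −1.21, 1.09 and −0.11.

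The remaining 7SK reads came mostly from 9 copies with at least 1000 reads over the 3 libraries, a limit chosen after the values were seen. These 9 copies held 98.7%, 98.0% and 97.8% of the remaining reads. RNA_7SK_1986 had 54228, 49593 and 53944 reads, RNA_7SK_2019 had 54820, 49082 and 51908, and RNA_7SK_2078 had 35547, 30369 and 32355. Per 1000 reads of the dominant copy, RNA_7SK_1986 had 12.02, 11.01 and 11.8 reads, RNA_7SK_2183 had 1.91, 1.91 and 1.95, and RNA_7SK_1941 had 0.455, 0.474 and 0.455. All 9 had log2 ratios between −0.38 and 0.11 in the 3 comparisons and so stayed close to the dominant copy. Whether reads of the dominant copy are counted on them was not tested.

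The other 752 7SK copies behaved differently from those 9. Together they had 2387, 3300 and 4023 reads, lowest in the DMSO library. Their log2 ratio was 0.52 for DAC over DMSO in siLuc (interval 0.44 to 0.60) and 0.54 for siStau1 DAC over siLuc DMSO (0.46 to 0.61). It was 0.02 for siStau1 over siLuc with DAC (−0.05 to 0.08), an interval that includes 0. With these copies alone as the remaining ones, dominant minus remaining turned from 0.13 to −0.47 for DAC over DMSO in siLuc and from 0.05 to −0.73 for siStau1 DAC over siLuc DMSO.

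In 7SL the 10 copies above the same limit held 78.1%, 76.0% and 72.9% of the remaining reads, and they differed among themselves more than the 7SK ones. srpRNA_7SLRNA_2013 had 2227, 5844 and 4048 reads, with log2 ratios of 1.44, −0.80 and 0.65. srpRNA_7SLRNA_1421 (178, 447 and 413 reads), srpRNA_7SLRNA_1901 (213, 487 and 404) and srpRNA_7SLRNA_2131 (281, 476 and 424) were likewise lowest in the DMSO library and highest in the DAC library. In contrast srpRNA_7SLRNA_2269_4, the copy just under the limit of dominance, was highest in the DMSO library, as was srpRNA_7SLRNA_1694_2 with 3021, 2476 and 2665 reads. Over the 10 copies the log2 ratio of DAC over DMSO in siLuc ran from −0.30 to 1.44. The 1415 lower 7SL copies had 11470, 11998 and 14416 reads in all, and with these alone as the remaining ones the 7SL difference for DAC over DMSO in siLuc went from 0.10 to −0.04.

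Copy by copy, the remaining Y RNA copies and, less so, the 7SK copies lay towards higher values in the DAC library than in the DMSO library. A copy was used where its reads in the 2 libraries summed to at least 20, which lets a copy in through whichever library is high. Over all repeat elements under the same rule, 21.3% were at least 2-fold higher and 17% at least 2-fold lower in the DAC library, with a median log2 ratio of 0.01. Of 65 Y RNA copies that passed (of 1223), 30 were at least 2-fold higher and 6 at least 2-fold lower, with a median of 0.88. Of 77 7SK copies (of 761), 25 were higher and 6 lower, with a median of 0.28. Of 239 7SL copies (of 1425), 40 were higher and 26 lower, with a median of 0.09, both shares below those of all elements. Of 60 BC200 copies (of 706), 17 were higher and 8 lower, with a median of 0.28.

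Low read numbers widen these ratios, so the depth of each copy matters. Among Y RNA copies with 20 to 99 reads over the 3 libraries the median was 1.10 (76 copies), and among the 16 copies with 100 reads or more it was 0.24. In 7SK the medians were 0.81 for 66 copies with 20 to 99 reads, 0.20 for 23 copies with at least 100 but under 1000 reads and −0.07 for the 9 highest copies. Over all repeat elements the medians were 0.16, −0.10 and −0.19 in the same ranges. At 20 to 99 reads 29.9% of all elements were at least 2-fold higher, beside 40 of the 76 Y RNA copies and 26 of the 66 7SK copies. With a minimum of 1 read in place of 20 the medians were 1.64 for Y RNA and 0.76 for 7SK.

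Single copies with at least 100 reads in the 3 libraries show both directions. The highest Y RNA ratio was that of scRNA_HY1_880, with 10, 65 and 99 reads, so both libraries with DAC were high. scRNA_HY1_524 had 16, 75 and 22 reads, high in the DAC library alone. scRNA_HY3_708_2 had 13, 66 and 31. At the other end scRNA_HY1_633 had 55, 24 and 52 reads, scRNA_HY3_752 had 53, 28 and 30, and scRNA_HY4_659 had 62, 35 and 87. Copies of HY1 and of HY3 thus stood at both ends.

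Among the 7SL copies srpRNA_7SLRNA_345_2 had 2, 38 and 65 reads, srpRNA_7SLRNA_2090 had 17, 87 and 82, and srpRNA_7SLRNA_1161 had 18, 53 and 32. These were the highest ratios, and in all 3 copies both libraries with DAC lay above the DMSO library. The lowest were srpRNA_7SLRNA_1720_2 with 59, 16 and 51 reads, srpRNA_7SLRNA_382_4 with 64, 28 and 65, and srpRNA_7SLRNA_1826 with 127, 60 and 137, all low in the DAC library alone.

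In 7SK the highest were RNA_7SK_301_2 with 28, 121 and 45 reads, RNA_7SK_1820 with 15, 51 and 44, and RNA_7SK_239_4 with 52, 152 and 122. The lowest was RNA_7SK_270, with 51, 0 and 85 reads. Taking 3 reads as the limit that a count of 0 allows, it was at least 16.4-fold lower in the DAC library than in the DMSO library and at least 23.5-fold lower than in the siStau1 DAC library. RNA_7SK_1701_2 had 50, 26 and 34 reads and RNA_7SK_799 had 53, 30 and 55. In BC200 scRNA_BC200_870 had 22, 92 and 23 reads at the high end, and scRNA_BC200_841 had 106, 45 and 336 at the low end.

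**Figure D3:**
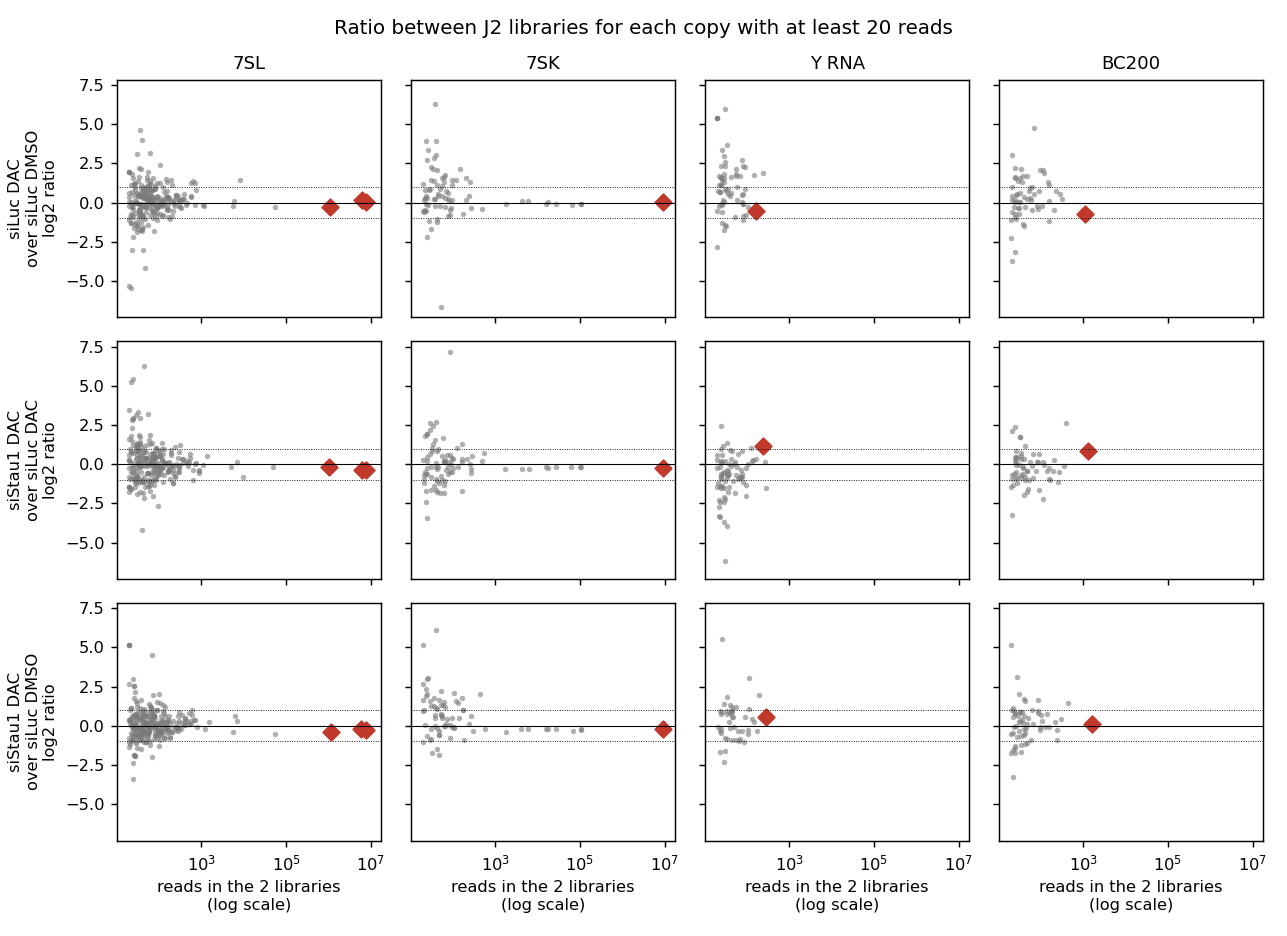
Log2 ratio between 2 J2 libraries (vertical axis) against the reads of each copy in those libraries (horizontal axis, log scale), by family in columns and comparison in rows. Grey points are remaining copies, red diamonds dominant copies and dotted lines 2-fold; the 7SL and 7SK copies with the most reads lie near 0, and the spread grows towards few reads.

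In the siStau1 DAC library the Y RNA copies lay lower than in the DAC library. For siStau1 over siLuc with DAC, 15.5% of all elements were at least 2-fold higher and 14.8% at least 2-fold lower, with a median of 0.03. Of 76 Y RNA copies, 4 were higher and 26 lower, with a median of −0.66. Of 87 7SK copies 14 were higher and 15 lower, with a median of −0.16, and of 257 7SL copies 37 were higher and 37 lower, with a median of −0.01. Of 62 BC200 copies 6 were higher and 12 lower, with a median of −0.34. At 20 to 99 reads over the 3 libraries 22.0% of all elements were at least 2-fold lower, beside 30 of 76 Y RNA copies. The DAC library, in which Y RNA copies were high, is the baseline here, so the low values in this comparison and the high ones above are not separate evidence.

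Set against the DMSO library, the siStau1 DAC library held higher values for many 7SK copies with under 1000 reads. Over all elements 14.5% were at least 2-fold higher and 8.27% at least 2-fold lower, with a median of 0.04. Of 75 7SK copies, 28 were higher and 4 lower, with a median of 0.51. Of 45 Y RNA copies, 10 were higher and 4 lower, with a median of 0.27. Of 264 7SL copies 33 were higher and 20 lower, with a median of 0.03, and of 61 BC200 copies 9 were higher and 10 lower, with a median of 0.17. At 20 to 99 reads over the 3 libraries the shares of all elements were larger, 25.1% higher and 14.5% lower, beside 29 higher and 7 lower of 66 7SK copies. With a minimum of 1 read the Y RNA median was 0.81. As the J2 data hold no siStau1 DMSO library, the effects of the siRNA and the drug cannot be told apart in this comparison.

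**Figure D4:**
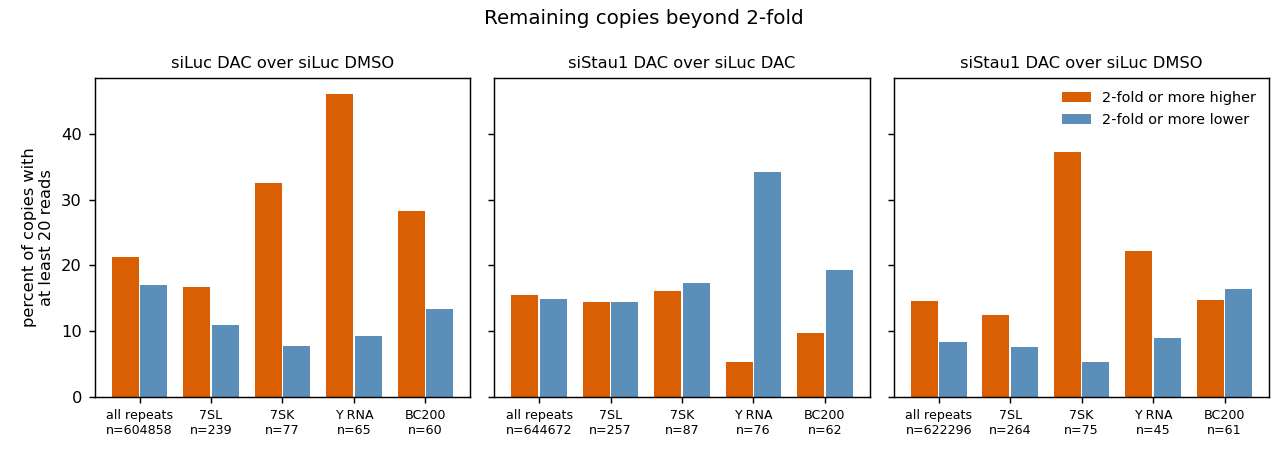
Percent of remaining copies with at least 20 reads that were 2-fold or more higher (orange) or lower (blue), with 1 panel per comparison and all repeat elements at the left of each; n is the number of copies. Y RNA copies stand above all elements for higher values with DAC in siLuc (30 of 65) and for lower values with siStau1 under DAC (26 of 76).

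The functional genes of these families were then examined in total RNA, where the authors give 1 FPKM value per group and their own calls at a q-value under 0.05. RN7SL3 had 15306 and 72793 FPKM with siLuc and 10244 and 32602 with siStau1. It rose 4.76-fold with DAC in siLuc (q = 0.0234 in the authors' deposited table) and 3.18-fold with DAC in siStau1 (q = 0.0134 in the authors' deposited table). Neither siRNA difference was called. RN7SL1 and RN7SL2 are listed at 0 in 3 groups and at 419 and 3640 FPKM in siStau1 DMSO, with the table's status LOWDATA and no test. The 3 genes are near-identical, so the value of RN7SL3 may hold reads of the others and is uncertain.

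RN7SK had 80918.5 FPKM with siLuc and DMSO, is listed at 0 with the status LOWDATA for siLuc and DAC, and had 110208 and 202720 FPKM with siStau1. It was tested only between groups with a value, and no difference was called. RNY1 had 1939, 7032, 2543 and 4128 FPKM in the 4 groups. It rose 3.63-fold with DAC in siLuc (q = 0.00732 in the authors' deposited table) and was 1.62-fold higher with DAC in siStau1, which was not called. RNY3 had 2813 and 1478 FPKM in the siLuc groups, is listed at 0 in siStau1 DMSO and had 276 in siStau1 DAC. Its siRNA difference with DMSO was called (q = 0.00162 in the authors' deposited table), and as other abundant small RNAs are also listed at 0 in single groups, no fold is given. RNY4 is listed at 0 in all groups. BCYRN1 had between 1.81 and 13.5 FPKM and was never called.

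**Figure D5:**
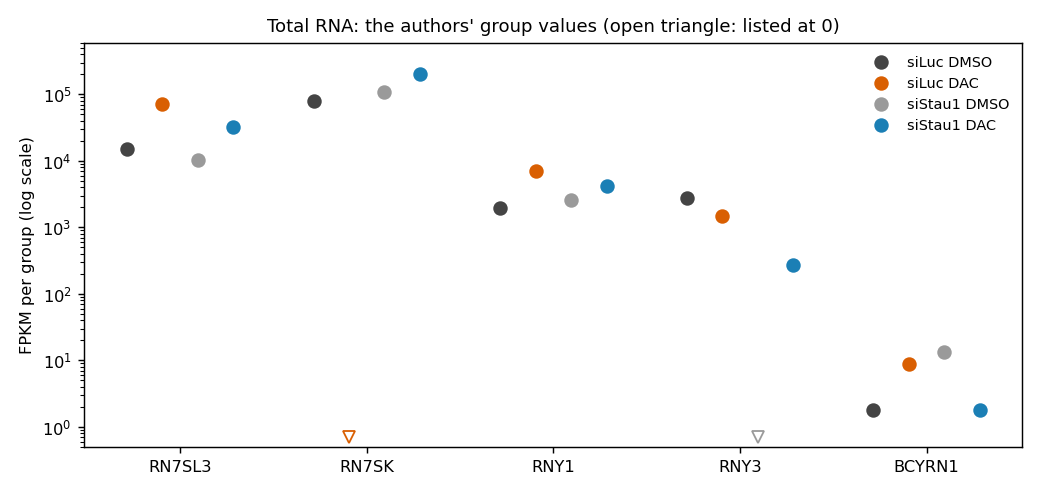
The authors' FPKM per group of 2 libraries (vertical axis, log scale) for 5 genes, with 1 circle per group and an open triangle for a value listed at 0. RN7SL3 and RNY1 are higher in both DAC groups than in the DMSO groups of the same siRNA.

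Annotated pseudogenes of the same families can be placed, unlike the repeat copies. Of 293 RN7SK pseudogenes 212 are listed at 0 in all groups, as are 495 of 677 RN7SL pseudogenes and 52 of 53 Y RNA pseudogenes. By the authors' deposited calls, 8 of 32 tested RN7SK pseudogenes rose with DAC in siLuc and 0 fell, against 8.71% and 4.78% of all tested genes. The highest was RN7SKP80 (chr22:42565048-42565330, minus strand, GRCh38, GENCODE release 29), with 2425, 8562, 3037 and 4172 FPKM in the 4 groups. RN7SKP255 had 414, 2057, 356 and 1182 FPKM and RN7SKP79 had 49.1, 276, 45.7 and 104. With DAC in siStau1, 0 of 29 tested RN7SK pseudogenes were called, against 7.46% of all tested genes (4.56% higher and 2.89% lower). With DAC, RN7SKP80, RN7SKP203 and RN7SKP79 were called lower in siStau1 than in siLuc, and 0.469% of all tested genes were. RN7SK itself has no value for siLuc with DAC, and how far its reads are counted on these pseudogenes there was not tested.

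Of 51 RN7SL pseudogenes tested with DAC in siLuc, 1 was called, against 13.5% of all tested genes. This was RN7SL546P, going from 13.1 to 68.4 FPKM (q = 0.00525 in the authors' deposited table).

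The proteins that bind or make these RNAs were taken from a list of 43 genes, of which 42 were tested. By the authors' deposited calls, DAC in siLuc raised 5 of them and lowered 4. Over all tested genes 13.5% were called (8.71% higher and 4.78% lower). The median log2 ratio was −0.02 over the list and 0.23 over all tested genes. With DAC in siStau1, 4 were called, 1 higher and 3 lower, against 7.46% of all tested genes (4.56% higher and 2.89% lower).

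Of the 8 genes of the signal recognition particle and its receptor, SRP9 and SRP14 were called lower with DAC and none was called higher. The products of SRP9 and SRP14 bind the Alu end of 7SL. Over all tested genes 4.78% were called lower with DAC in siLuc and 2.89% in siStau1. SRP9 had 128 and 31.7 FPKM with siLuc and 186 and 75.9 with siStau1. SRP14 had 182, 83.2, 351 and 114 FPKM. Both fell with DAC under either siRNA, with q-values in the authors' deposited table of 0.00162 and 0.00162 for SRP9 and 0.0302 and 0.0399 for SRP14. SRP68, a subunit of the other end of the particle, had 46.0, 45.4, 43.4 and 44.6 FPKM. Lower values were not limited to SRP9 and SRP14. Of the 8 genes, 6 were lower with DAC in siLuc (median log2 ratio −0.91) and 5 in siStau1 (−0.54). SRP19, SRP54 and SRP72 had log2 ratios of −1.76, −0.84 and −0.98 in siLuc and −1.25, −0.66 and −0.43 in siStau1, none called. The receptor genes SRPRA and SRPRB were higher, at 0.73 and 0.39 in siLuc and 0.66 and 0.67 in siStau1, not called. Whether the ends of the particle differ was not tested.

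Of the 7 genes of the 7SK particle and P-TEFb, MEPCE, which caps 7SK, was the only one called. It rose with DAC in siLuc from 13.0 to 29.1 FPKM (q = 0.0214 in the authors' deposited table) and had 8.72 and 18.7 FPKM in the siStau1 groups. Over all tested genes 13.5% were called with DAC in siLuc, and 8.71% were called higher. LARP7, which protects the 3′ end of 7SK, had 28.8, 8.87, 70.2 and 18.3 FPKM and was not called (q = 0.136 and 0.0568 for DAC in the authors' deposited table). HEXIM1 had 11.4, 17.3, 9.34 and 12.9 FPKM and CDK9, the kinase of P-TEFb, had 23.7, 40.8, 17.7 and 34.8.

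Of 5 tested Y RNA and La binding genes, SSB, which encodes La, fell with DAC under both siRNAs, from 68.3 to 17.2 FPKM (siLuc) and 121 to 37.5 FPKM (siStau1). PUF60, a Ro-binding splicing factor, rose from 141 to 295 and from 97.9 to 189 FPKM. RO60 had 24.1, 14.3, 36.4 and 26.4 FPKM and was not called. Of these 5 genes, 2 were called with DAC under each siRNA, beside 13.5% of all tested genes in siLuc and 7.46% in siStau1. Of 22 genes of RNA polymerase III and its factors, POLR3A, the largest subunit, rose with DAC in siLuc from 10.1 to 24.1 FPKM, SNAPC4 from 5.44 to 19.1, and MAF1, a repressor of the polymerase, from 50.9 to 137. POLR3G, a subunit of 1 form of the polymerase, fell from 32.3 to 6.56 FPKM. Of the 22, 4 were called with DAC in siLuc, against 13.5% of all tested genes. With DAC in siStau1 0 were called, against 7.46% of all tested genes. There POLR3A, SNAPC4, MAF1 and POLR3G had log2 ratios of 0.72, 1.32, 0.65 and −1.47, in the same directions as in siLuc.

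Calls for the siRNA were few in this list, as they were over all tested genes. In DMSO 0 of 42 genes were called by Cuffdiff in the authors' deposited table, against 0.799% of all tested genes. Of the 42, 1 had an unadjusted Cuffdiff p under 0.05. With DAC 1 gene was called, SRP9, which was 2.39-fold higher in siStau1, against 0.904% of all tested genes (0.434% higher). The SRP9 call was lost (0 called) when p-values were adjusted within that comparison. GC content moved with these calls: the 5 genes called higher with DAC in siLuc had 49.4% to 63.1% GC in their longest transcript and the 4 called lower had 34.3% to 43.5%. Across genes, Spearman's rho of the log2 ratio against GC content came to 0.785 over the 42 genes and 0.523 over all 17504 tested genes for DAC in siLuc. For siStau1 over siLuc it had the opposite sign, −0.684 with DMSO and −0.823 with DAC over the 42 genes (−0.364 and −0.588 over all tested genes), and SRP9 has 37.1% GC. These are descriptions across genes, which are not replicates. The part of GC content in these calls was not tested.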

How the data were processed

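Per the submitters' processing notes, reads were handled with bcl2fastq 2.20, HISAT2 2.1.0, featureCounts, DESeq 1.36.0 and Cuffdiff 2.2.1 on hg38; which tool made which file is not given in the sources used here. The deposited J2 tables list a value per library for each repeat element. In the deposited siLuc DMSO column each value is a count raised by 1. In the other columns the authors' signal is that raised count multiplied by a factor of the library, and dividing by each column's minimum and subtracting 1 gave whole reads for 100% of values (tolerance 1e-06). Repeat names carry no positions, and treatment of reads that fit several copies is not given.

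Log2 ratios used reads scaled to reads on repeats with 0.5 reads added. Copies needed 20 reads in the 2 libraries compared. Shares have Wilson 95% intervals. Even read numbers were commoner than odd ones, so mates of 1 pair may each be counted, and intervals and the floor of 3 reads, which cover counting error only, are too narrow in that case. The recovery of reads from scaled values, the log2 ratios and the dominance rule were tested on simulated data with known answers. No count model was fitted, with 1 library per group.

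For total RNA the authors deposited FPKM values per group with their p-value and q-value for each comparison, in Cuffdiff layout per the file headers. No value per library is given, so no SD and no test of single libraries could be made, and depth is unknown. Fold changes are ratios of FPKM, and log2 ratios have 0.1 FPKM added. Nothing in the labels says whether the 2 libraries of a group came from separate cultures.

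Members, the list of 43 partner genes, and the rules were chosen with earlier results of these data known. Named copies are the dominant ones and, among remaining copies with at least 100 reads, the 3 highest and 3 lowest ratios of siLuc DAC over siLuc DMSO in each family; copies named for their rank, or for reads of 0, were chosen after their values were seen. Named partner genes are those called, and others named were chosen after their values were seen. Values were computed in Python 3.11.15 with numpy 2.4.6, pandas 2.3.3 and scipy 1.17.1. RO60 was matched by gene identifier. Sequences of the genes of these families are not reported here.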

Additional observations from a re-analysis of the deposited data

How the results depend on the processing

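Values are log2 and, where 3 are given, in the order siLuc DAC over siLuc DMSO, siStau1 DAC over siLuc DAC, siStau1 DAC over siLuc DMSO. With the authors' factors the family ratios were 0.97, −0.66 and 0.30 for 7SL, 0.93, −0.57 and 0.37 for 7SK, and 1.82, −0.86 and 0.96 for Y RNA, so the last ratio of 7SL and of 7SK turned in direction. The medians of remaining copies were then 0.98, −0.33 and 0.60 for 7SL, 1.17, −0.48 and 1.07 for 7SK, and 1.76, −0.98 and 0.84 for Y RNA. These shifts follow from the factors, which move all elements alike. Scaling to reads outside the members gave 0.093, −0.40 and −0.31 for the 7SL family and 0.059, −0.30 and −0.24 for 7SK. With dominance at 1% of family reads, dominant minus remaining was 0.11 and 0.043 for 7SK (the comparisons over siLuc DMSO), and −0.68 and 0.56 for Y RNA (those that hold siLuc DAC). With dominance judged in siLuc DMSO alone it was −0.20 for Y RNA in siStau1 DAC over siLuc DMSO, against 0.19. In an alternative added after seeing the data, with remaining copies under 1000 reads only, it was −0.037, −0.34 and −0.38 for 7SL and −0.47, −0.27 and −0.73 for 7SK. It turned for 7SL in siLuc DAC over siLuc DMSO and for 7SK in both comparisons over siLuc DMSO, as the 10 and 9 highest copies were left out. With a minimum of 1 read the Y RNA median for siLuc DAC over siLuc DMSO was 1.64; the cause was not tested. A q-value limit of 0.01 left 5 partner genes called for DAC in siLuc (9 at 0.05) and 2 in siStau1 (4 at 0.05). Adjustment within the comparison left 0 called for siStau1 over siLuc with DAC, against SRP9 in the authors' q-values; 7 had an unadjusted Cuffdiff p under 0.05. The other 38 results lay within the 95% interval of the reported value or, for counts, within 1.5 times of it, but some intervals are wide. For medians of remaining copies this interval was taken over the copies, which are not replicates. It therefore does not show how far 2 libraries of 1 condition differ. At 1% dominance the Y RNA difference for siStau1 DAC over siLuc DMSO went from 0.19 to −0.12. With a minimum of 1 read the 7SK medians were 0.76, −0.048 and 0.70, the 7SL median for siStau1 DAC over siLuc DAC was 0.083 against −0.01, and the Y RNA median for siStau1 DAC over siLuc DMSO was 0.81 against 0.27. Adjustment within the comparison called 12 partner genes for DAC in siLuc, against 9.

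BC200, whose values were added after seeing the data, moved in 12 of 21 such results. No paired analysis was possible because the total RNA table holds 1 value per group and each J2 group has 1 library. The planned replicate block was not run, and no library could be left out. Depth limits the Y RNA and BC200 results most, since few of their copies reach 100 reads.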

Other observations

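In 7SL, 7SK and Y RNA the share of copies with a read was larger at higher values of the number in the copy's name, whose meaning is not stated. The 3 dominant 7SL copies carry the 3 highest numbers of their family, 2870, 2827 and 2707, and the dominant 7SK copy carries the highest, 2993. The 7SK copies with the next highest numbers, RNA_7SK_2502 and RNA_7SK_2491, had 0 reads in all 3 libraries. Each family was divided by this number into 3 groups of near-equal size. In the DMSO library 11.6% of the 476 7SL copies with the lowest numbers had a read, 35.7% of the middle group and 53.8% of the group with the highest numbers. For 7SK these shares were 15.7%, 20.1% and 32.3%, for Y RNA 10.05%, 14.5% and 16.9%, and for BC200 26.7%, 22.1% and 25%, so BC200 had no such order. The summed reads of the remaining Y RNA copies did not follow the number: in the DMSO library they were 306, 651 and 610 from the lowest to the highest group. In the DAC library the lowest group of 7SL copies was at 17.4% and the highest at 47.1%, a narrower range than in the DMSO library.

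Some copies had no reads in 1 library and many in the others. Among copies with at least 20 reads in both other libraries, 2 of 220 members had 0 reads in the DAC library (0.909%), RNA_7SK_270 and srpRNA_7SLRNA_722, against 2.15% of all repeat elements. srpRNA_7SLRNA_722 had 20, 0 and 45 reads in the DMSO, DAC and siStau1 DAC libraries. RNA_7SK_268_3 had 0, 37 and 39 reads, the only member at 0 in the DMSO library among 239 (0.418%), against 0.202% of all elements. In the siStau1 DAC library 0 of 203 members were at 0, against 0.0042% of all elements.

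The pseudogene RN7SL471P (chr6:28977475-28977773, plus strand, GRCh38) had 0.365 FPKM under DMSO and 825 under DAC with siLuc, and 1.30 under DMSO and 299 under DAC with siStau1. In the authors' deposited table it was called lower in siStau1 than in siLuc with DAC (q = 0.00162). It was not among the genes called for DAC in siLuc. It was named here after its values were seen.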
